A study of Oryza sativa Japonica Group with 41 samples.

Results

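Lysine crotonylation (Kcr) was compared between leaves of rice seedlings held under water for 6 h and leaves of untreated seedlings, from the peak lists of 4 Kcr ChIP-seq libraries among the 41 samples of the series. Peaks of the 4 lists that overlapped by at least 1 bp were merged into 36496 Kcr regions, and the tags (aligned reads counted in a peak) of each library were summed per region. The same merging over all 26 antibody lists of the series gave 39174 regions. A region was taken to have risen or fallen when it had a peak in all 4 libraries and its tags passed an edgeR quasi-likelihood test, to be gained when both submerged and neither control library had a peak in it, and to be lost in the reverse case.

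The seedlings were of the cultivar DongJin, the study's wild type for this experiment, and no transgene or mutation was involved. They were 12 days old, and leaves, with no root or endosperm, were collected at ZT12 in both groups, so that each library mixes all cell types of the leaf. The control group (2 libraries) had no treatment and the submergence group (2 libraries) spent 6 h in distilled water. The start hour printed in the labels is not 6 h before the harvest hour. The study's methods place the start at noon and the harvest 6 h later, which is the length the labels state. The labels do not say whether the 2 replicates of a group came from separate sets of plants, so the p-values measure the spread between libraries, which may be technical.

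Crotonylation attaches a short unsaturated acyl chain to histone lysines, and butyrylation (Kbu) a saturated chain of the same length. Both are made from acyl-CoA precursors of central metabolism by enzymes that also acetylate histones, and can be removed by some histone deacetylases. Acetylation of lysine 9 of histone H3 (H3K9ac), measured beside them, is a mark of active genes. Submergence limits oxygen and turns the seedling to fermentation, and the study asked whether the acyl marks change with it. The Kcr antibody recognizes crotonyllysine on any protein and does not single out a histone site. Gene positions were not used here, so regions are given by their place on the MSU7.0 assembly.

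The libraries were of similar depth. For the controls MACS kept 15734278 and 16599810 tags, for the submerged libraries 16730596 and 14833976, and called 29792 and 32235 against 33265 and 33251 peaks. The share of tags in peaks was 41.6% and 50.4% for the controls and 43.4% and 46.3% for the submerged libraries, against 2.11% in the input, and 203 of the 36496 regions overlapped one of the 652 input peaks. Control replicate 1 stood apart from control replicate 2 in its share of tags in peaks, and 3407 regions had a peak in replicate 2 of the controls only against 1034 in replicate 1 only. In the submerged libraries these numbers were 2158 for replicate 1 only and 2066 for replicate 2 only. Over regions called in all 4 libraries, Pearson's r of the log tags was 0.943 between the controls, 0.940 between the submerged libraries and 0.875 to 0.901 between groups. These correlations are across regions, which are not independent replicates.

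Most Kcr regions were present in both conditions. A peak was found in all 4 libraries in 27363 of the 36496 regions (74.98%), 1303 were gained (3.57% of all), 331 were lost (0.907%), and the other 7499 (20.5%) had peaks in libraries that did not follow the groups, of which 1562 lacked a peak in control replicate 1 only. In the 27363 tested regions, 337 rose (1.23%) and 199 fell (0.727%), together 1.96%, at an edgeR adjusted p of 0.05, with a common dispersion of 0.00708. With regions lacking a peak set to 0 tags, in the 33054 regions with a peak in at least 2 libraries, edgeR called 0 in either direction, with 6515 at an unadjusted p under 0.05 and a dispersion of 0.388, while DESeq2 on the tested regions called 229 and 110. The log2 fold changes hardly moved in that fit (2.01 for the largest rise, against 2.03), and the sign was kept in all 337 and 199 regions, whose tags are the same in both fits. The changes were moderate, with a median log2 fold change of 0.87 (0.44 to 2.03) in the regions that rose and −0.72 (−1.70 to −0.43) in those that fell. With 2 libraries a group, the smallest two-sided p of an exact permutation test is 0.33, and none was run on a single region. Without control replicate 1 the counts were 390 and 188 and without control replicate 2 they were 283 and 138. Without submergence replicate 1 they were 200 and 154 and without submergence replicate 2 they were 537 and 192.

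The number of rising regions thus depended on which submerged library was kept. Of the 337 and 199 regions, between 149 and 237 and between 86 and 123 were called again with one library less. The sign was kept in all 337 and 199. The groups did not overlap in normalized tags in any of these regions, so the sign could hardly change. The tags of both submerged libraries lay above those of both controls in 28.3% of all tested regions and below in 27.8%, so that groups without overlap were common among regions that passed no test.

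The region with the largest rise was chr2:28174616-28181232, a stretch of 6617 bp. Its tags numbered 205 and 219 without treatment and 790 and 786 under submergence, so that the 2 values of each group were close together and the groups far apart. The log2 fold change was 2.03 (SE 0.10, edgeR adjusted p = 0.00206). The called length was 1448 and 1416 bp in the controls and 6520 and 6480 bp under submergence. The left edge of the called stretch moved by 5118.5 bp and the right edge by −31.5 bp (means of the replicates, outwards positive), while the strongest summit moved by 13 bp. Tags per kb were 142 and 155 against 121 and 121, so the density was not higher and the rise lay in the added length. Control tags outside the control peaks are not in the lists. The fold change thus compares stretches of unlike length and may be overstated.

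The other 7 of the 8 largest rises started from small peaks. On chromosome 11, chr11:24046090-24049907 held 73 and 114 control tags against 377 and 279 (log2 fold change 1.95, SE 0.17, edgeR adjusted p = 0.00901). On chromosome 4, chr4:27215476-27218184 held 79 and 89 against 244 and 264 tags, and chr4:21606608-21610190 held 112 and 112 against 374 and 298. In both of these the submerged values were over 2 times the larger control value.

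Of the remaining 4, chr2:29429487-29432528 held 124 and 124 against 369 and 360 tags, with 1428 and 1287 bp of called length in the controls and 3042 and 2913 bp under submergence. In chr3:29109443-29112249 there were 85 and 74 against 235 and 227 tags. In chr10:9666689-9669323 the submerged replicates were less alike, at 272 and 173 tags against 82 and 77, and without control replicate 2 its edgeR adjusted p was 0.0705. The last, chr2:34564419-34566699, held 80 and 90 against 247 and 209 tags. All 8 had log2 fold changes between 1.55 and 2.03, and in all 8 the called peak was longer in both submerged libraries than in either control.

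The largest fall was found at chr2:27652705-27654331, where 190 and 306 tags in the controls stood against 70 and 67 under submergence (log2 fold change −1.70, SE 0.18, edgeR adjusted p = 0.0114). The control replicates differed from each other by more than the submerged ones, yet both lay above them. Its called length went from 1443 and 1615 bp to 918 and 939 bp, and its tags per kb from 132 and 189 to 76.3 and 71.4, so both the length and the density were lower.

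The falling region with the most tags among those named was chr4:34076394-34082015. It held 878 and 1025 tags in the controls and 373 and 336 under submergence (log2 fold change −1.29, SE 0.09, edgeR adjusted p = 0.00534). Here the peak shortened from 5566 and 5572 bp to 1734 and 1698 bp, the right edge moving by −3838.5 bp and the summit by 4.0 bp, and the tags per kb of what was left were higher, at 215 and 198 against 158 and 184. As in the largest rise, the change was in a long stretch to one side of a summit that stayed in place. Tags of the submerged libraries in that stretch, outside their called peaks, are not counted, so this fall may be overstated too.

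The other 6 of the 8 largest falls had log2 fold changes between −1.40 and −1.29. They were chr4:28778896-28782314 with 231 and 489 against 121 and 122 tags, and chr11:19874940-19876726 with 240 and 310 against 86 and 109. On chromosome 1, chr1:30322953-30326129 held 345 and 290 against 100 and 129 tags and chr1:40993829-40995232 held 170 and 214 against 66 and 73. The remaining ones were chr3:3823930-3827821, with 359 and 293 against 120 and 123 tags, and chr11:7613862-7615303, with 198 and 240 against 74 and 89.

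**Figure D1:**
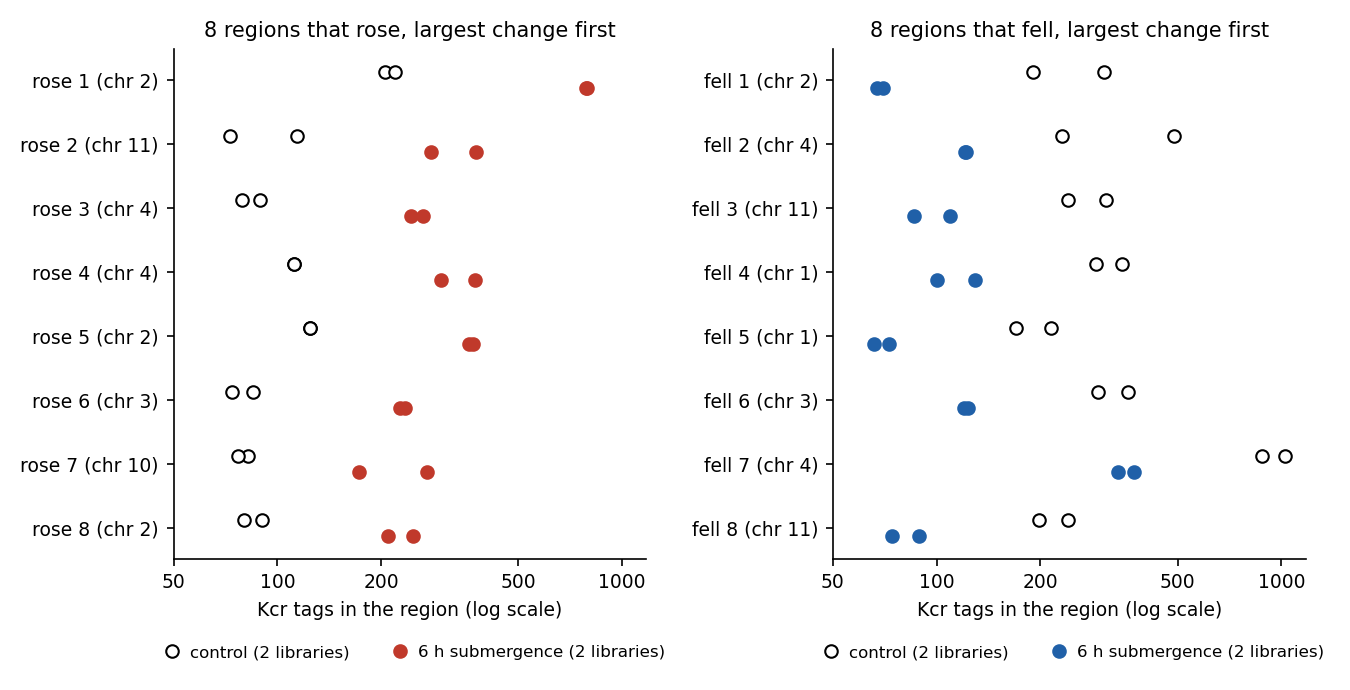
Kcr tags per library (log scale) in the 8 regions with the largest rise and the 8 with the largest fall, named by rank and chromosome; open points are the 2 control libraries and filled points the 2 submerged libraries, with no error bars. Regions were chosen to have groups without overlap, and the largest rise goes from 205 and 219 to 790 and 786 tags.

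Regions that changed had a wider merged span than the rest. A merged span covers the peaks of every library, so it is wide where a peak lengthens or shortens between groups. The merged span was 2465 bp in the median of the rising and 2322 bp in that of the falling regions, against 1568 bp in the 26827 tested regions that were not called. In the rising regions the median called length was 1408 and 1541 bp in the controls and 2406 and 2275 bp under submergence. In the falling regions it was 2213 and 2187 bp in the controls and 1493 and 1484 bp under submergence. Rising peaks thus started at about the length of the others (1431 and 1441 bp in regions not called) and became long, while falling peaks started long and ended at about the length of the others. Almost all regions held a single peak in each library, at least 92.6% in any class and library, so that the lengths are those of single peaks.

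The change lay more in length than in density. The median log2 change of called length was 0.61 in the rising and −0.47 in the falling regions, and that of tags per kb 0.30 and −0.31. The called length of both submerged libraries exceeded that of both controls in 324 of the 337 rising regions (96.1%, against 14.8% of all tested), and lay below in 183 of the 199 falling ones (92.0%, against 30.1%). Tags per kb lay above in 256 rising regions (76.0%, against 33.3%) and below in 121 falling ones (60.8%, against 17.4%). The fold enrichment at the summit lay above in only 104 rising (30.9%, against 11.6%) and below in 84 falling regions (42.2%, against 19.4%). Tags and called length of one peak are not independent, and these shares describe the regions without a test. Tags outside a called peak are not counted. Where called length differs between groups, the fold change of tags compares unlike stretches and may be overstated. When called length entered the edgeR fit as an offset, so that density was tested, 252 regions rose and 124 fell, but only 65 and 66 of them were among those called on tags.

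The falling regions were divided by whether called length changed by over 1.5-fold. In 90 of 199 the called length shrank by over 1.5-fold, from a median of 2940 and 2980.5 bp to 1466 and 1488 bp, and tags per kb were higher in 60 of these 90. In the other 109 the length changed less, from 1737 and 1786 bp to 1521 and 1473 bp, and the density fell in 108, from a median of 157 and 204 to 123 and 118 tags per kb. That density falls where tags fall and length is kept follows from the definition. Of the 337 rising regions, 181 were over 1.5-fold longer, with a median log2 change of tags per kb of 0.20, and the other 156 had one of 0.42. Among all tested regions, 391 were over 1.5-fold longer (1.43%) and 250 over 1.5-fold shorter (0.914%). The fragment length that MACS estimated was 211 bp in both controls and 204 and 206 bp in the submerged libraries, and its part in the lengths was not tested.

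**Figure D2:**
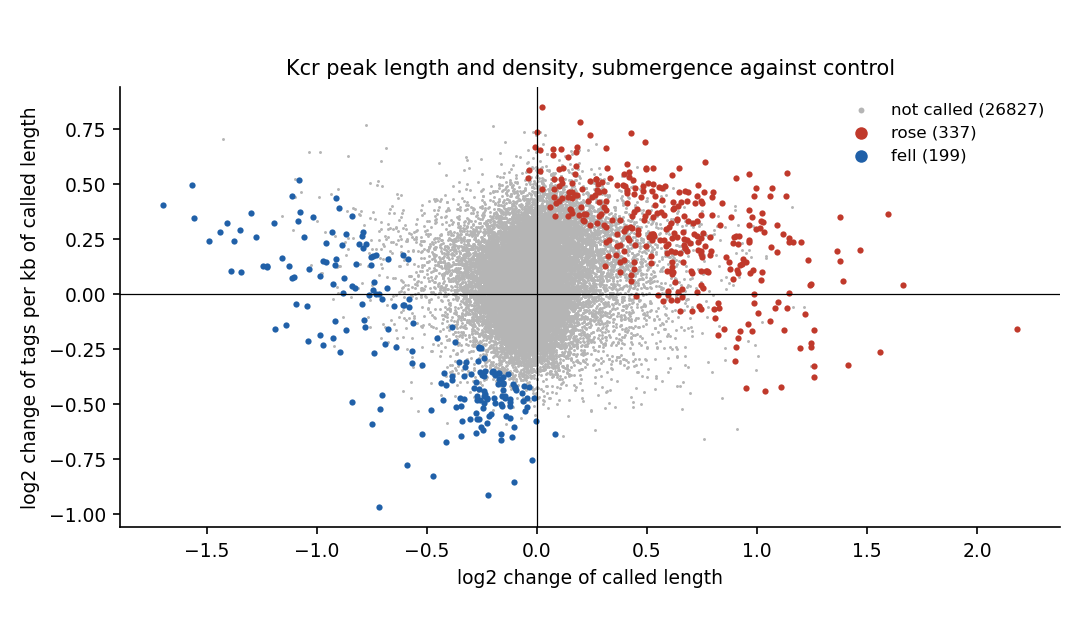
Log2 change of called peak length (horizontal axis) and of Kcr tags per kb of called length (vertical axis), submergence against control, in the 27363 tested regions; each point is 1 region. Rising regions (337) lie to the right, with a median length change of 0.61, and falling regions (199) to the left, 90 of them over 1.5-fold shorter.

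The growth was mostly at one edge of the peak. In the 298 rising regions with exactly 1 peak in each library, one edge moved outwards by over 500 bp in 167 (56.0%, against 2.71% of the 26612 tested regions of this kind) and both edges did so in 9. The side was even, with 79 on the left and 88 on the right as the chromosome is read. In the 180 falling regions of this kind, one edge moved inwards by over 500 bp in 73 (40.6%, against 1.58%) and both in 4. Summits stayed in place. The mean summit of the submerged libraries lay 56.0 bp (median) from that of the controls in the rising regions, where the 2 controls themselves differed by 57.5 bp, and 61.5 bp in the falling regions, where the controls differed by 61.0 bp.

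Rising regions started low and falling regions high. In the rising regions the controls held a median of 142 and 178 tags and the submerged libraries 275 and 254. In the falling regions the controls held 314 and 375 tags and the submerged libraries 193 and 188. Regions not called held 210 and 255 against 215 and 207. When the tested regions were put into 4 equal groups by their control Kcr tags, 2.49%, 1.21%, 0.848% and 0.380% rose from the lowest to the highest group, and 0%, 0.249%, 0.819% and 1.84% fell. The control tags enter the test itself, so this order is a description.

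Kbu in the control libraries, whose tags took no part in the Kcr test, gave the same order. The labels do not say whether the Kbu and Kcr libraries came from the same chromatin, so this readout may not be independent. In 4 equal groups by control Kbu tags, 2.17%, 1.14%, 0.714% and 0.592% of regions rose in Kcr and 0.0152%, 0.334%, 0.957% and 1.62% fell. The change of all regions moved with the level too: the median log2 change was 0.19 in the lowest group by Kbu and −0.10 in the highest. With this trend of the libraries with level removed by a loess offset, an alternative chosen after seeing the data, 348 regions rose and 186 fell, and 287 and 162 of them were among those called before. The shares by Kbu group were then 1.61%, 1.29%, 1.002% and 0.957% for rises and 0.273%, 0.395%, 0.835% and 1.25% for falls, so that the order was kept and the contrast between the lowest and highest group was smaller. In the lowest Kbu group the share that rose was 1.15% without submergence replicate 1, 3.45% without submergence replicate 2, 1.41% without control replicate 2 and 2.35% without control replicate 1, each time the highest of the 4 groups.

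**Figure D3:**
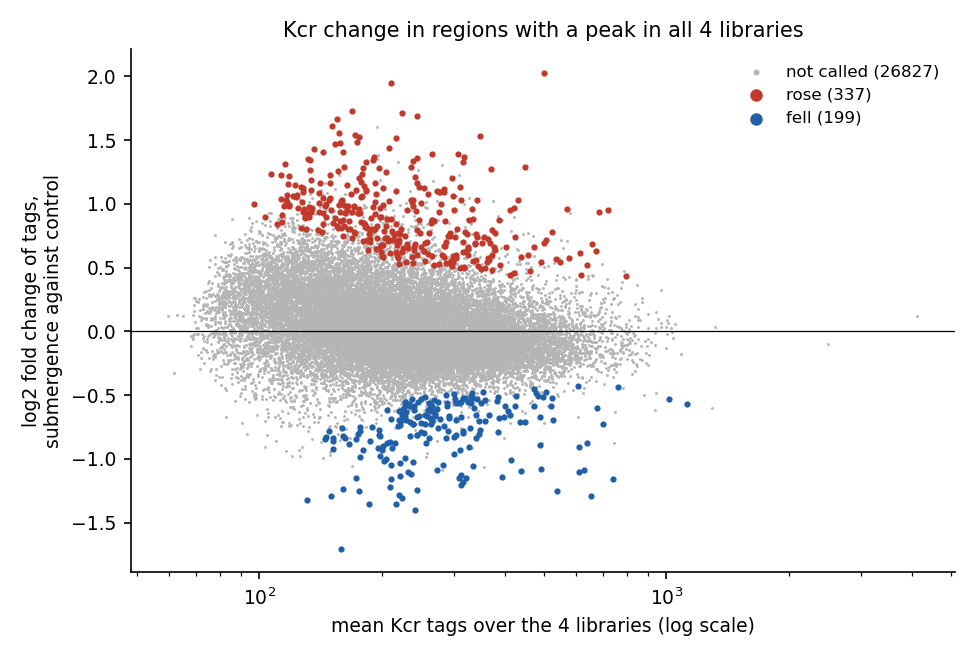
Log2 fold change of Kcr tags (submergence against control) against the mean tags of the 4 libraries (log scale) in the 27363 tested regions. The 337 regions that rose lie mostly among low and middle levels, the 199 that fell among middle and high levels, and the cloud of the 26827 regions not called tilts downwards with level.

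**Figure D4:**
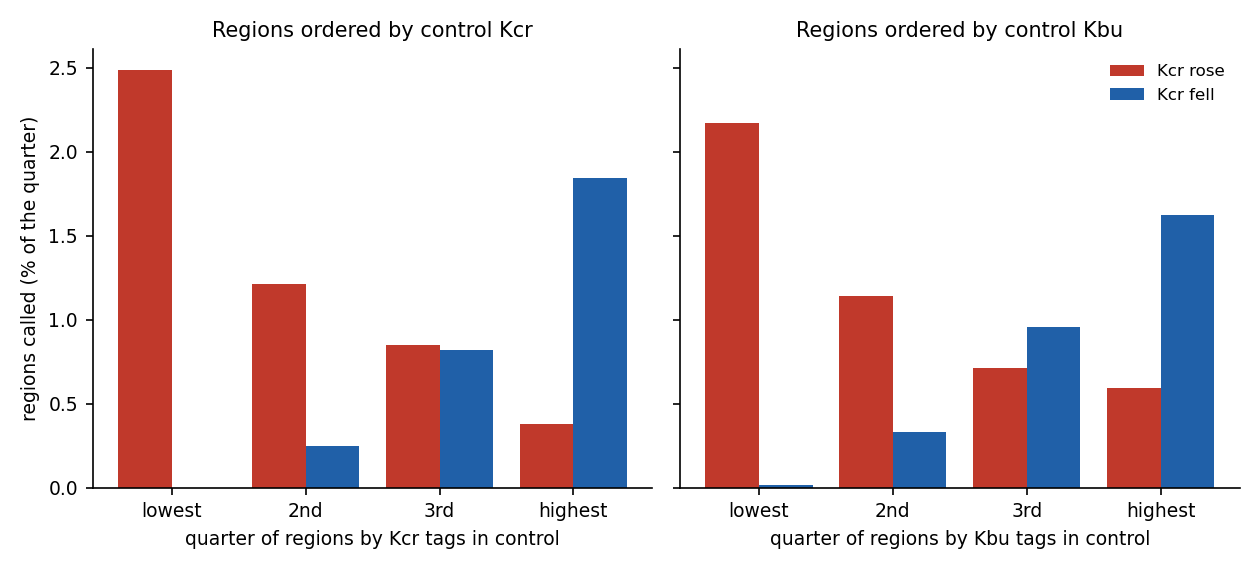
Share of tested regions in which Kcr rose or fell, in 4 equal groups by control Kcr tags (left) and by control Kbu tags (right, regions with a Kbu peak in both controls). Rises go from 2.49% to 0.380% on the left and from 2.17% to 0.592% on the right, and falls from 0% to 1.84% and from 0.0152% to 1.62%.

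Width before the treatment was also read from Kbu. In 4 equal groups by the called length of Kbu in the controls, Kcr rose in 0.881%, 0.668%, 0.866% and 2.202% and fell in 0.0607%, 0.304%, 0.623% and 1.94% of regions. Both classes were thus most frequent among the widest Kbu peaks, while by Kbu tags rises were most frequent in the lowest and falls in the highest group. For rises this depended on the scaling: with called length as an offset their shares were 1.25%, 0.516%, 0.729% and 1.11%, highest for the narrowest Kbu peaks, and with MACS tags as library sizes they were 2.19% for the narrowest and 2.25% for the widest. In the rising regions the Kbu peaks of the controls were 2072 and 1629 bp long with 229 and 181 tags in the median, against 1639 and 1490 bp and 285 and 270 tags in regions not called.

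Rising and falling regions also differed in H3K9ac. Of the falling Kcr regions, 183 of 199 (92.0%) had an H3K9ac peak in both controls, and of the rising ones 127 of 337 (37.7%), against 75.4% of those not called. Put the other way, Kcr rose in 0.618% and fell in 0.891% of the 20547 tested regions with H3K9ac in both controls, and rose in 3.38% and fell in 0.195% of the 5628 with H3K9ac in neither. H3K9ac presence rises with Kcr level, so the comparison was repeated within groups of similar level. In the lowest group by control Kbu tags, 20.3% of the 143 rising regions had H3K9ac in both controls, against 38.0% of all regions in it, and in the highest group 87.2% of the 39 rising regions had it, against 96.8%. Falling regions were close to the rest of their group. In the second group 86.4% of the 22 falling regions had H3K9ac, against 81.6% of all regions in it. In the third it was 92.1% of 63, against 93.5%, and in the highest 96.3% of 107, against 96.8%.

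Kbu rose in part of the rising and fell in most of the falling Kcr regions. Of the 303 rising Kcr regions with Kbu peaks in all 4 Kbu libraries, Kbu rose in 114 (37.6%, against 2.7% of the 27565 regions tested for Kbu) and fell in 1, with a median log2 change of 0.52. Of the 189 falling ones, Kbu fell in 139 (73.5%, against 3.37%) and rose in none, with a median of −0.66. The sign of the Kbu change was that of Kcr in 286 of 303 and 183 of 189 regions. As a share of the Kbu lists, the rising Kcr regions held 15.3% of the 745 regions where Kbu rose, and the falling ones 15.0% of the 928 where it fell. With 1 Kcr library left out at a time, Kbu rose in 26.2% to 34.6% of the rising and fell in 61.9% to 73.3% of the falling regions. The Kbu and H3K9ac libraries may come from the chromatin of the Kcr libraries. Their agreement with Kcr may therefore not be independent of the Kcr calls.

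The Kbu libraries differed in fragment length between the groups, with 249 and 227 bp in the controls and 195 and 202 bp under submergence, and the median Kbu peak went from 1617 and 1458 bp to 1279 and 1322 bp. The Kbu counts moved with it. With called length as an offset in every fit, an alternative for the other marks chosen after seeing the data, Kbu rose in 7066 of the 27565 regions and fell in 139, and the part of fragment length in the Kbu values was not tested. In the Kcr regions called on tags the Kbu peak was 2080 and 1632 bp in the controls and 1956 and 1993 bp under submergence where Kcr rose, and 2335 and 2134 bp against 1451 and 1544 bp where Kcr fell. Kbu peaks lengthened in both submerged libraries over both controls in 66 of 303 rising regions (21.8%), against 1.71% of all. They were shorter in both in 51 rising regions (16.8%) and in 175 of 189 falling regions (92.6%), against 69.7% of all.

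H3K9ac also followed Kcr where it was measured. It could be tested in only 118 of the 337 rising regions, and rose there in 66 (55.9%, against 13.9% of 19947 tested) and fell in 2, with a median log2 change of 0.44. In 152 falling Kcr regions it fell in 130 (85.5%, against 17.8%) and rose in 2, with a median of −0.87. The H3K9ac peak lengthened from 1559 and 1569.5 bp to 1952 and 1972.5 bp where Kcr rose, and shortened from 2127.5 and 2307 bp to 1526 and 1501.5 bp where Kcr fell. H3K9ac passed the limit in far more regions than Kcr. The rising Kcr regions held 2.37% of its 2779 rises and the falling ones 3.66% of its 3552 falls. Quartiles of the log2 change over all tested regions were −0.19 and 0.18 for H3K9ac and −0.15 and 0.18 for Kcr. The counts therefore do not show that H3K9ac changed by more than Kcr. Across all regions the Pearson correlation of the Kcr change with that of Kbu was 0.708 (n = 26093 regions) and with that of H3K9ac 0.524 (n = 19574).

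**Figure D5:**
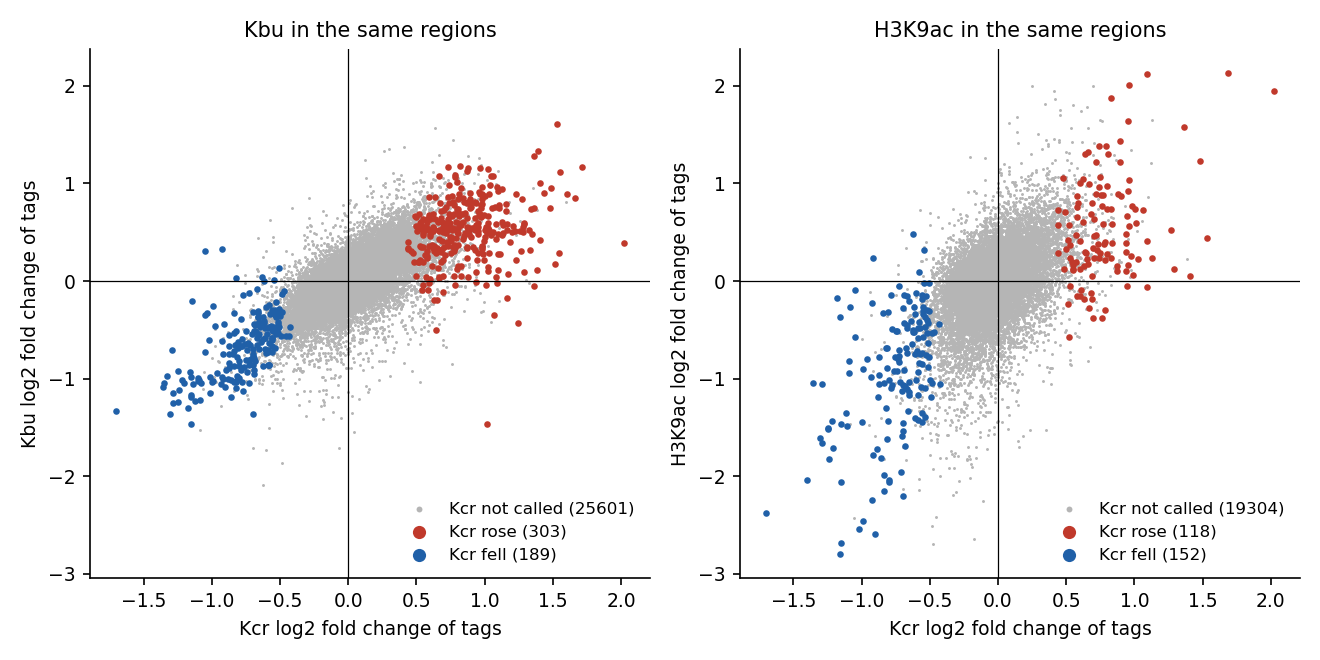
Log2 fold change of Kbu (left) and H3K9ac (right) against that of Kcr in the same regions, submergence against control; each point is 1 region with peaks in all 4 libraries of both marks. Where Kcr rose, 286 of 303 regions have a higher Kbu and 103 of 118 a higher H3K9ac, and where Kcr fell, 183 of 189 and 148 of 152 have lower values.

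The difference between marks was tested itself, as the interaction of mark and treatment in the 19438 regions with peaks in all 12 libraries of the 3 marks. The Kcr change lay above that of Kbu in 22 regions (0.113%) and below in 1 (0.00514%). It lay above that of H3K9ac in 1020 (5.25%) and below in 312 (1.61%). In the 1020 regions H3K9ac fell in 939, with a median log2 change of −0.69 against −0.06 for Kcr, and in the 312 H3K9ac rose in 260, with 0.55 against −0.09 for Kcr. Of the 148 falling Kcr regions in this fit, 39 (26.4%) were among the 1020 and 8 among the 312, and of the 115 rising ones 26 (22.6%) and 3, against 4.98% and 1.57% of those not called. The classes were called on the same Kcr tags that enter this fit, so these shares are a description. By number, 955 of the 1020 and 301 of the 312 were regions where Kcr was not called. With MACS tags as library sizes, 279 regions lay above and 174 below H3K9ac.

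The largest rise on chromosome 2 differed between the acyl marks. Kbu there had 292 and 233 tags in the controls and 186 and 330 under submergence, 2 overlapping ranges with a log2 change of 0.39 (SE 0.21, edgeR adjusted p = 0.263). H3K9ac had 153 and 182 against 533 and 623 tags (log2 change 1.94, SE 0.08, edgeR adjusted p = 6.5e-06), with a peak of 1091 and 1443 bp in the controls and 6744 and 5868 bp under submergence. In the largest fall, Kbu went from 282 and 272 to 81 and 83 tags, and H3K9ac from 487 and 510 to 80 and 92. At chr4:34076394-34082015 Kbu went from 1088 and 1031 to 564 and 396 tags and H3K9ac from 1044 and 1129 to 424 and 512.

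Gained and lost Kcr peaks were small, as were those of the 7499 regions whose peaks did not follow the groups (median span 1213 bp, 93 to 110 tags and a fold enrichment of 3.61 to 3.985 in a library). The 1303 gained regions had a median span of 1257 bp, with a median of 108 and 94 tags in the 2 submerged libraries and a fold enrichment of 3.74 and 3.93. The 331 lost regions had a span of 1337 bp, with 109 and 131 tags in the controls and a fold enrichment of 3.74 and 4.2. Regions not called had 6.26 and 7.43 in the controls. The MACS score of the gained peaks was 72.9 and 73.9 in the median, where 50 was needed for a call, and both peaks were under 100 in 877 of the 1303 (67.3%). In regions not called all scores were under 100 in 2.00%. Gained and lost peaks thus sat near the calling limit, and a region without a peak may still hold tags that are not in the lists.

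More peaks were gained than lost under each setting run. Leaving out a library removes a condition from the rule, so both counts could only stay or grow from 1303 and 331. Without control replicate 1 there were 1811 gained and 1282 lost regions, and without control replicate 2 there were 2865 gained and 585 lost. Without submergence replicate 1 the counts were 2345 and 693, and without replicate 2 they were 2498 and 790. Replicates of a group disagreed on 4441 regions in the controls (13.5% of those with a peak) and 4224 in the submerged libraries (12.1%), which is more than were gained and lost together. With peaks of a score of at least 100, there were 857 gained and 382 lost regions.

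Only 28 gained and 12 lost regions held a mean of 300 tags or more. The largest gain, chr7:28848740-28854027, had no control peak and 837 and 836 tags under submergence, in peaks of 5261 and 5246 bp with a fold enrichment of 4.53 and 4.49. The others were chr6:28874456-28878430 (578 and 484 tags), chr4:2958471-2962007 (430 and 393), chr4:27567513-27570429 (445 and 355) and chr3:28111245-28114378 (404 and 387). All 5 were at least 2917 bp wide and, apart from the first, had a fold enrichment between 2.07 and 2.96.

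The largest losses were wide as well, at 2352 to 4726 bp. The first, chr1:40815728-40820453, had 586 and 592 control tags in peaks of 4667 and 4686 bp with a fold enrichment of 2.70 and 2.62. It was followed by chr3:2810394-2813076 (423 and 525 tags), chr9:17532933-17535896 (450 and 460), chr10:18415534-18418536 (371 and 479) and chr4:23510180-23512531 (331 and 413). In these last 4 the fold enrichment lay between 3.13 and 4.27. Replicates of another mark disagreed in some of these regions: at chr3:2810394-2813076 Kbu had no peak in control replicate 1 and 564 tags in control replicate 2, and at the chromosome 7 gain H3K9ac had 711 and 0 tags in the submerged replicates.

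Kbu peaks were gained and lost in part at the same places, while H3K9ac gains stood near their share over all regions. Of the gained Kcr regions, 7.37% had Kbu in both controls and 42.7% in both submerged libraries, and of the lost regions 59.2% and 25.4%, against 78.7% and 83.3% of all regions and 27.9% and 38.0% of those whose peaks did not follow the groups. A Kbu peak was itself gained in 336 of the 1303 gained Kcr regions (25.8%, against 3.50% of all regions), which is 26.3% of the 1278 Kbu gains, and lost in 82 of the 331 lost regions (24.8%, against 1.10%), 20.4% of the 401 Kbu losses. H3K9ac had a peak in both controls in 26 of the 1303 gained and 107 of the 331 lost regions (32.3%), against 58.1% of all regions and 7.21% of those whose peaks did not follow the groups. It was gained in 51 of the gained regions (3.91%, against 2.33%) and lost in 48 of the lost ones (14.5%, against 1.72%). In 88.4% of the gained regions no control or submerged library had an H3K9ac peak. Gains and losses of the other marks were not counted apart for regions whose Kcr peaks did not follow the groups. Presence follows the calling limit and the summit place in each library, and these shares were not tested.

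Changed regions were spread over all 12 chromosomes. Chromosome 3 held 36 of the 199 falling regions (18.1%) and 11.9% of those tested, and 1.11% of its tested regions fell, the largest share of any chromosome, followed by 1.02% on chromosome 9. The smallest was 0.410% on chromosome 11. The share that rose lay between 0.710% on chromosome 7 and 1.62% on chromosome 10, and the share of all regions gained between 2.76% on chromosome 3 and 4.51% on chromosome 9. Lost regions were between 0.552% on chromosome 6 and 1.17% on chromosome 4. With 7 to 45 rising or falling regions on a chromosome the differences were not tested.

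The shares of gains and falls went opposite ways with the number of Kcr regions around them, a description that was not tested. In 4 groups of all regions by the number of Kcr regions in their 1-Mb window, the share gained was 4.48%, 3.799%, 3.13% and 2.79% from the sparsest to the densest windows, and the share of tested regions that fell was 0.416%, 0.682%, 0.825% and 1.004%. Rises (1.49%, 1.08%, 1.28% and 1.05%) showed no such order. The falls rest on 29 to 63 regions in a group, and regions whose peaks did not follow the groups were not divided by window. Along the chromosome, in 5 equal parts, the share gained was highest in the second part (4.46%) and 3.15% and 3.16% in the outer ones, and the share that fell was lowest in the third (0.408%) and highest in the last (0.986%). Within 2 Mb of a chromosome end lay 15.7% of rising, 13.6% of falling, 14.6% of gained and 11.5% of lost regions, against 15.7% of those tested.

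Another Kcr region lay within 500 bp in 11.7% of the gained and 15.1% of the lost regions, against 12.2% of those whose peaks did not follow the groups, 7.70% of all regions, 6.18% of the tested regions, 4.45% of the rising and 8.04% of the falling ones. Falling regions were often neighbours: 20 of 199 (10.1%) had another falling region as the next region on the chromosome, while 1.08% of all regions had one. For rising regions this was 8 of 337 (2.37%, against 1.83%).

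The study called a gene changed when it differed more than 1.5-fold in both replicates, and the same rule was applied to the tested regions with tags relative to those kept by MACS. It gave 282 regions that were higher (1.03%) and 272 that were lower (0.994%), of which 205 and 161 were among those called by edgeR. The median log2 ratio of all regions was −0.04 in replicate 1 and −0.14 in replicate 2, so changes are relative to this shift. With TMM factors, which centre the ratios, 447 were higher and 168 lower. Per kb of called length, 6 regions were higher and 29 lower by this rule.

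Kcr libraries from the 48 h darkness treatment share these controls, so values are given side by side only. At the largest rise they held 387 and 446 tags against 205 and 219 in the controls and 790 and 786 under submergence. At chr11:24046090-24049907 and chr2:34564419-34566699 neither darkness library had a peak. At chr4:34076394-34082015 they held 471 and 586 tags, and at the chromosome 7 gain 962 and 1097. Of the gained regions, 67.7% had no peak in either darkness library, and of the lost regions 32.6%, against 55.6% of the regions whose peaks did not follow the groups and 15.6% of all regions.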

How the data were processed

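The 2 control and 2 submerged Kcr ChIP-seq libraries of seedling leaves were analysed, with 4 Kbu and 4 H3K9ac libraries, 2 Kcr libraries of the darkness treatment and 1 input for comparison. Per the study's methods, reads were trimmed with Trimmomatic, aligned to MSU7.0 with Bowtie2 2.2.5 allowing up to 2 mismatches, cleared of PCR duplicates with Samtools 0.1.19, and peaks were called for each library with MACS 1.4.2. Per the file headers, MACS ran without a control library, at a p cutoff of 1e-05, with local background read over 10000 bp, a band width of 300 bp and no more than 1 tag at any position. The deposited tag counts are reads in a called peak and were not normalized by the authors. The deposited fold enrichment is a ratio over local background tags, and the deposited score, a multiple of the negative log10 of the MACS p, is at least 50. Tags outside peaks are not in the values.

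Peaks were merged and tags summed in Python 3.11.15 (numpy 2.4.6, pandas 2.3.3, scipy 1.17.1, matplotlib 3.10.9). A peak of another mark was given to the Kcr region that held its summit. The quasi-likelihood test of edgeR 4.0.16 (R 4.3.3, limma 3.58.1), with TMM normalization and no replicate block, was run on regions called in every library of the fit, with Benjamini-Hochberg adjustment over all regions tested and a limit of 0.05. The SE was taken as the log2 fold change over the root of the F statistic. The interaction fit used 12 libraries. DESeq2 1.42.0, other library sizes, offsets, filters and each library left out were alternatives. The fits were checked on simulated counts. Regions named were the 8 largest rises and 8 largest falls past the limit without overlap between groups and with at least 200 bp, and the 5 gained and 5 lost regions with most tags. The median Kcr peak held 188 to 231 tags, on which the precision of a region rests.

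Same-numbered replicates did not deviate together (r = 0.068), so the numbers were not used as pairs. No column of values was left out. A gene annotation of the build was not used here, so gene lists drawn up for this work were not analysed, nor was the RNA-seq. Classes, lists and tests were chosen with earlier results of these data known.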

Additional observations from a re-analysis of the deposited data

Results flagged for a closer look

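At chr2:28174616-28181232, the region with the largest Kcr rise, the Kcr change exceeded that of Kbu by 1.64 on the log2 scale (SE 0.23, edgeR interaction, adjusted p = 0.0133). It is listed because the test of the difference between marks passed there. The region was named for its Kcr rise, and the same Kcr tags enter this test, so the difference is not independent of that choice. Both submerged Kcr libraries (790 and 786 tags) lay above both controls (205 and 219), while the Kbu replicates disagreed under submergence (186 and 330 tags, in peaks of 1263 and 2692 bp, against 292 and 233 tags).

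At chr2:27652705-27654331, the region with the largest Kcr fall, the fall of Kcr was smaller than that of H3K9ac by 0.71 on the log2 scale (SE 0.20, edgeR interaction, adjusted p = 0.0495). H3K9ac went from 487 and 510 to 80 and 92 tags and Kcr from 190 and 306 to 70 and 67, and the adjusted p lies just under the limit. Among the other named rises and falls, the test of the difference between marks could be made only in falling regions. These were chr11:19874940-19876726, chr3:3823930-3827821, chr4:34076394-34082015 and chr11:7613862-7615303, and none of them passed it. No other named rise had peaks in all 12 libraries.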

How the results depend on the processing

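The counts of called regions moved with scaling and filters. DESeq2 called 229 rises and 110 falls, MACS tags as library sizes 534 and 470 (median log2 change of all regions −0.10), and called length as an offset 252 and 124. With regions lacking a peak set to 0 tags (a peak in at least 2 libraries), edgeR called 0 and 0, with 6515 regions at an unadjusted p under 0.05 and a dispersion of 0.388, against 6224 in the reported fit. Leaving out each library gave 200 to 537 rises and 138 to 192 falls. Gained regions then ranged from 1811 to 2865 and lost regions from 585 to 1282, against 1303 and 331 by the full rule. The gained and lost counts could not become smaller, since a condition of the rule is dropped. With a score of at least 100 there were 857 gained and 382 lost regions. The 1.5-fold rule gave 6 and 29 regions per kb of called length, 447 and 168 with TMM factors, and 89 higher regions with a score of at least 100.

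Among the other marks, MACS tags as library sizes gave 3797 Kbu falls, and called length as an offset gave 7066 Kbu rises and 139 falls, and 1776 H3K9ac rises and 1379 falls. With that offset, Kbu rose in 94.9% of the rising Kcr regions tested for it, against 25.6% of all regions tested. Kbu fell in 44.2% of the falling ones, against 0.504%, and H3K9ac fell in 51.0% of the falling ones, against 6.91%. The rising and falling regions here are the 252 and 124 called with the offset, of which 65 and 66 were also called without it. The Kcr change lay below that of Kbu in 2 regions, and above and below that of H3K9ac in 279 and 174, with MACS tags as library sizes. 3 named regions, in which called length changed more than tags, changed sign with called length as an offset. The largest rise went to −0.16 (edgeR adjusted p = 0.420) and chr3:3823930-3827821 to 0.10 (edgeR adjusted p = 0.678). The region chr4:34076394-34082015 went to 0.41 (edgeR adjusted p = 0.0409), so it passed the limit in the opposite direction. With this offset 8 others missed the limit. The other alternatives kept the sign of every named region they tested, but these regions were chosen to have groups without overlap. The limit was also missed by chr10:9666689-9669323 without control replicate 2 (edgeR adjusted p = 0.0705), by the largest rise with a score of at least 100 (0.194) and by chr4:28778896-28782314 with 6 Kcr libraries (0.0502). All 16 missed the limit when absent peaks were set to 0 tags, with edgeR adjusted p between 0.108 and 0.159.

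With the replicate number as a block (a pairing the labels do not explain), 410 Kcr regions rose and 244 fell, and Kbu rose in 1229 regions, while 302 and 186 of the Kcr calls were shared. Same-numbered libraries did not deviate together (r = 0.068). Gained and lost regions held few tags, with medians of 102 and 119.5 (means of the libraries with a peak), which limits their precision.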

Other observations

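Some large losses lay beside gains. The lost region chr4:23510180-23512531, with 331 and 413 tags in the controls, was followed on the chromosome by the gained region chr4:23512684-23515998, with 428 and 354 tags under submergence. Beside the lost region chr1:40815728-40820453 (586 and 592 tags) lay the gained region chr1:40822451-40824983 (258 and 153 tags). Both pairs were noticed after the values were seen.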
